A study of Homo sapiens with 6 samples.

Results

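The steady-state transcriptome of A549 cells that received a non-targeting control siRNA is described here. Genes were ranked by the mean of the 2 control libraries. A gene was counted in the baseline if it stood at 1 or more in both libraries and its 2 values lay within 2-fold of each other. Of the 19990 genes of the table, 9730 (48.7%) met this rule.

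A549 is an established human line derived from a lung adenocarcinoma and grows as epithelial-like cells in culture. The series holds 6 RNA sequencing libraries made from poly(A)-selected RNA with a kit that marks strand (dUTP). In 2 libraries the cells carried TIMM13 siRNA 1 and in 2 others TIMM13 siRNA 2, both labelled as TIMM13 knockdown, and the last 2 received the control siRNA and are labelled WT. The study asked how TIMM13, a small chaperone of mitochondrial protein import, bears on proliferation. All 6 samples share the cell line and a treatment field that reads cell differentiation, which the titles do not mention, so the groups were taken from the titles. No source used here gives the hours after transfection or the siRNA dose. Nothing in the labels says that replicates were grown as separate cultures, and a p-value here measures only the spread among these libraries, which may be technical.

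The values are abundances per gene in 1 table, not read counts, and their unit is not named. Column totals were 216524 and 219820 for siRNA 1, 205986 and 299936 for siRNA 2, and 209245 and 209559 for the controls, so siRNA 2 replicate 2 stood apart. Depth is unknown, and no counting interval or detection limit is given. The median gene of the whole table had a control mean of 1.64, and 4196 genes were listed at 0 in both control libraries. A listing at 0 was not read as silence, because all 13 mRNAs encoded by mitochondrial DNA were listed at 0.

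A549 cells carry altered STK11 and KEAP1, among other genes. KEAP1 is the adaptor through which a ubiquitin ligase removes the transcription factor NRF2 (gene NFE2L2), and where KEAP1 is defective NRF2 stays in the nucleus and drives genes for iron storage, glutathione and thioredoxin systems, NADPH supply and aldo-keto reduction. NRF2 pairs with a small MAF protein on an antioxidant response element, whose core reads TGACNNNGC. Translation of most ribosomal protein mRNAs is set by growth signals through a run of pyrimidines at their very start.

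The following sequences show those motifs in genes of the baseline, as RefSeq gives them on GRCh38.p14. Each of the first 5 lines holds an antioxidant response element core, in capitals, with 10 bases on either side, within the window from 250 bases before to 50 bases after the start of the gene. The strand is the one on which the core reads as written.
GPX2, chr14:64942849-64942877, plus strand: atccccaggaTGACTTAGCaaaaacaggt
PGD, chr1:10398853-10398881, minus strand: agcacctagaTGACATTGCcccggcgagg
TXNRD1, chr12:104215670-104215698, plus strand: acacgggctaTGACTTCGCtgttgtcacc
GCLM, chr1:93909446-93909474, plus strand: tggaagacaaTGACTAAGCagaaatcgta
ME1, chr6:83431170-83431198, minus strand: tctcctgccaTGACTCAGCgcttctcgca

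The next lines give the start of 6 genes of the translation machinery, with 10 bases before the start and 15 from it. Capitals mark the run of C and T that opens the transcript, and the strand is that of the gene.
RPL41, chr12:56116623-56116647, plus strand: cttcgcctttCTCTCggccttagcg
RPL29, chr3:51995881-51995905, minus strand: cagcccctttCTCTTCCggttctag
RPL13A, chr19:49487598-49487622, plus strand: aaacctcctcCTTTTCCaagcggct
RPS19, chr19:41860245-41860269, plus strand: ccccgtcgttCCCTTTCCCCTggct
EEF1A1, chr6:73521018-73521042, minus strand: cgtgaacgttCTTTTTCgcaacggg
EEF2, chr19:3985449-3985473, minus strand: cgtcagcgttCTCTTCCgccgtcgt

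The core TGACNNNGC, searched on both strands, was present in 6 of the 21 listed NRF2 target genes with a promoter window (28.6%), against 15.1% of the 7921 baseline genes with one and 13.6% of all 27305 windows. A start at C followed by 4 further letters C or T was present in 43 of 64 ribosomal protein genes (67.2%) and in 10 of 17 genes for translation factors and binding proteins (58.8%), against 5.47% of baseline genes and 4.04% of all windows. The windows follow the annotated start of 1 transcript a gene, and a match describes letters, not binding or use.

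The control transcriptome was led by ferritin, enzymes of aldehyde and carbonyl reduction, glycolysis and the actin cytoskeleton. FTL, the ferritin light chain (ENSG00000087086, chr19:48965301-48966878, plus strand, GRCh38), stood at 5456 in control replicate 1 and 5120.3 in control replicate 2, or 5288 ± 237 (SD, n = 2), and alone made up 2.53% of the column total. FTH1, the ferritin heavy chain that oxidises iron for storage (ENSG00000167996, chr11:61959718-61967660, minus strand), stood at 2372 and 2420.3. The next ranks were held by the glycolytic enzyme GAPDH at 1805 and 1886, the retinal and aldehyde dehydrogenase ALDH1A1 at 1756 and 1831, and the aldo-keto reductase AKR1B1 at 1644 and 1692. The 10 highest genes held 8.80% and 8.73% of the totals, the 30 highest 14.5% and 14.6%, and the 1000 highest 54.8% and 55.3%. The whole baseline held 92.2% and 92.4%.

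**Figure D1:**
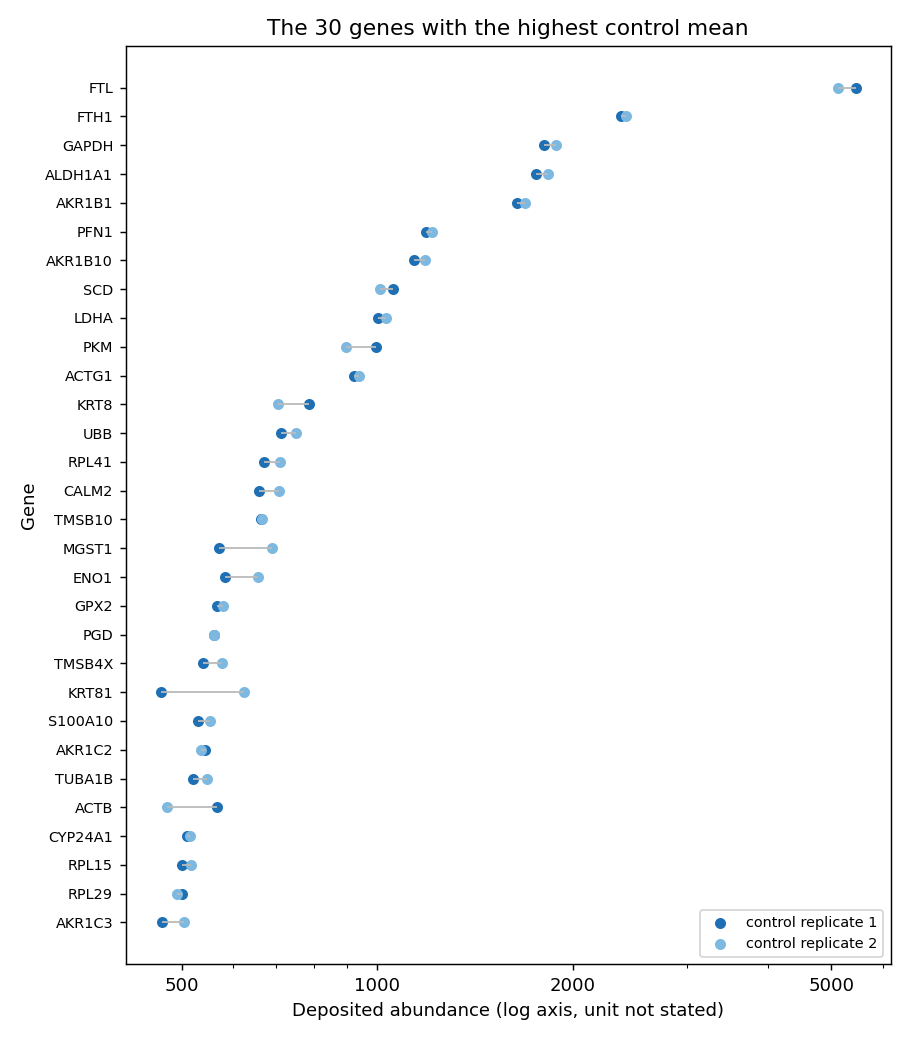
Deposited abundance (log axis, unit not stated) of the 30 baseline genes with the highest control mean, with 1 point for each control library. FTL lies apart at 5456 and 5120.3, and KRT81 shows the widest gap among the 30, at 464 and 623.

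Levels fell steeply below these ranks. Of the 9730 baseline genes, 9 had a mean of 1000 or more, 28 of 500 or more, 257 of 100 or more and 3773 of 10 or more, and the median was 7.14. The control libraries lay a median of 1.09-fold apart over baseline genes, and 8126 genes (83.5%) lay within 1.25-fold. By annotation in GENCODE release 29, 9463 baseline genes (97.3%) were protein coding. Levels of different genes can be set side by side only where values are scaled by transcript length. For the 2301 genes with 1 annotated transcript, the product of value and length gathered at 80 to 90 in control replicate 1, with 49 of 229 products under 200 against a median of 9 in bins of that width, and at 70 to 80 in control replicate 2, with 47 of 250. Such a common step is what a per-length scale gives. The check covered only genes with 1 annotated transcript, which were 517 of the 9730 baseline genes. For all other genes a per-length scale is assumed and was not tested, and order between genes is read here with that limit.

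The NRF2 targets had the highest median and the largest summed share of the lists examined, apart from the median of the 3 marker genes CYP24A1, FTL and HMOX1. Of 32 listed NRF2 targets in the table, 29 belonged to the baseline, 20 had a mean of 100 or more, and the median was 155, against 7.14 over all baseline genes. Together they held 7.04% ± 0.0523 of the control totals (SD, n = 2), and 7 of them stood among the 30 highest genes. FTL alone held 2.61% of the total in control replicate 1 and 2.44% in control replicate 2. FTL, FTH1 and HMOX1 belong both to this list and to that of iron and haem, so the summed shares overlap and lean on ferritin. Without FTL and FTH1 the summed share of the NRF2 targets would fall below that of the ribosomal proteins (4.31%). The NRF2 list was compiled with earlier results of these libraries known, so its height is a description. Among its detoxifying enzymes, AKR1B10, which reduces retinal and lipid aldehydes, stood at 1139 and 1186. The steroid and quinone reductases AKR1C2 and AKR1C3 stood at 543 and 535 and at 466 and 504. AKR1C1 was lower, at 175 and 183. These 3 genes share most of their sequence, and how reads were divided among them is uncertain.

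GPX2, a selenium-dependent peroxidase of epithelia that carries the element printed above, stood at 567 and 578. PGD, which yields NADPH in the pentose phosphate pathway, stood at 561.0 and 560.7, the closest pair among the 30 highest genes. TXNRD1, the reductase of thioredoxin, stood at 309 and 335. GCLM, the modifier subunit of glutathione synthesis, stood at 97.2 and 94.4, and its catalytic partner GCLC at 50.4 and 48.3. ME1, the cytosolic malic enzyme that makes NADPH, stood at 31.1 and 30.5. Elements of the same core thus preceded genes that lay more than 10-fold apart in level.

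A few listed targets were low or unsteady between the control libraries. Thioredoxin itself, TXN, stood at 9.80 and 10.5. CBR1, a carbonyl reductase, stood at 0.206 and 0.0593, although its promoter window holds the core. NQO1, a quinone reductase, stood at 42.8 in control replicate 1 and 261 in control replicate 2, and SRXN1, which repairs peroxiredoxins, at 5.88 and 299.6, so both fell outside the baseline. Of the regulators, NFE2L2 stood at 136 and 143, the partner MAFK at 99.4 and 97.0, and KEAP1 at 25.8 and 23.7. The repressor BACH1 was unsteady, at 2.81 and 15.

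Iron handling was carried by few genes. Of 18 listed genes of iron and haem, 15 belonged to the baseline and 4 had a mean of 100 or more, and the list held 4.24% ± 0.0793 of the control totals (SD, n = 2). HMOX1, the oxygenase that opens haem and frees its iron (ENSG00000100292, chr22:35380361-35394214, plus strand), stood at 465 and 488 and ranked 31 in the baseline. PCBP1, a chaperone that delivers iron to ferritin, stood at 374 and 394. TFRC, the transferrin receptor for uptake, stood at 55.3 and 54.9, and SLC40A1, the iron exporter ferroportin, at 16.7 and 16.5. FTL and FTH1 have many processed pseudogenes, and FTH1 overlaps BEST1 on the other strand. Whether counting used strand is not stated, so these values carry that uncertainty.

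**Figure D2:**
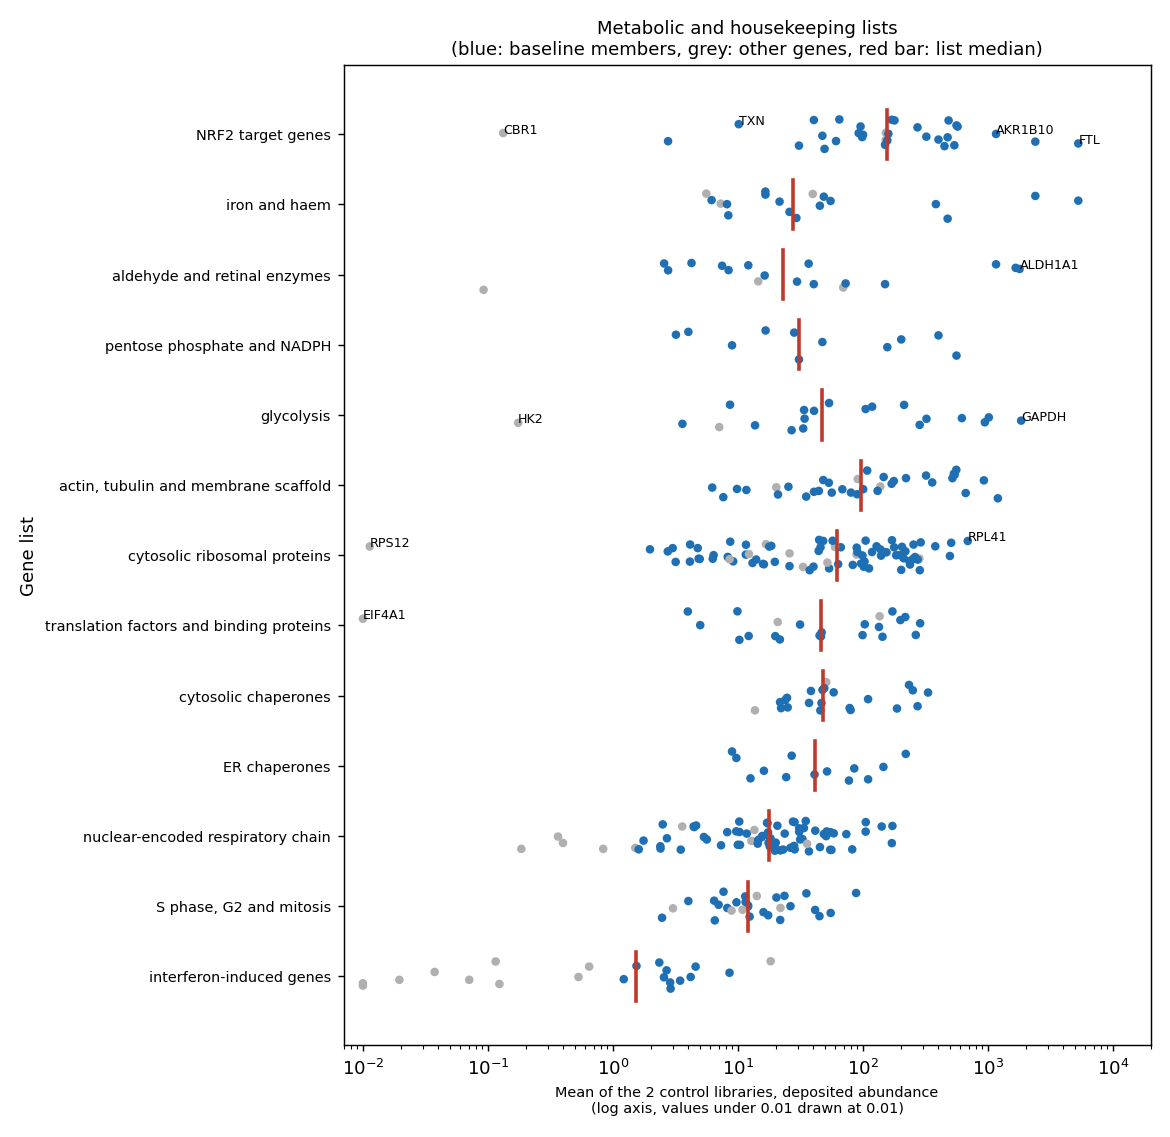
Mean of the 2 control libraries (log axis, deposited abundance) for each gene of 13 metabolic and housekeeping lists, with baseline genes in blue, other genes in grey and the list median as a red bar. The median is 155 for NRF2 targets, 95.8 for actin, tubulin and membrane scaffold, 61.6 for ribosomal proteins and 1.54 for interferon-induced genes.

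Carbon metabolism stood high as well. Glycolysis had 18 of 20 listed genes in the baseline with a median of 47.1, and 4 of them stood among the 30 highest genes. LDHA, which makes lactate, stood at 1002 and 1032, the pyruvate kinase PKM at 995 and 896, and the enolase ENO1 at 584 and 655. SLC2A1, the glucose transporter GLUT1, stood at 52.0 and 55.2. Of the hexokinases, HK1 stood at 32.4 and 35.3 and HK2 at 0.167 and 0.182. LDHB, the other main lactate dehydrogenase subunit, stood at 0.127 and 14 and could not be placed. SCD, which puts the double bond into stearate, ranked 8 at 1056 and 1009.7. All 11 listed genes of the pentose phosphate pathway and NADPH supply belonged to the baseline, with IDH1, the cytosolic isocitrate dehydrogenase, at 204 and 202.

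Detoxification of aldehydes was uneven within its family. Of 18 listed genes 15 belonged to the baseline, with a median of 23.1, far below the leading 3, ALDH1A1, AKR1B1 and AKR1B10. ALDH3A1, which removes aldehydes of lipid peroxidation, stood at 156 and 145. ALDH2, the mitochondrial enzyme of ethanol metabolism, stood at 14.2 and 9.99, and ALDH1A3, a second retinal dehydrogenase, at 7.44 and 7.50. MGST1, a membrane glutathione transferase outside that list, ranked 17 at 570.2 and 689.7.

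The translation machinery was broad and less steady. Of 80 ribosomal protein genes in the table, 69 belonged to the baseline with a median of 61.6, and together they held 4.31% ± 0.0534 of the control totals (SD, n = 2). RPL41, a very short ribosomal protein, stood at 671 and 710.0, RPL15 at 500.0 and 517, and RPL29 at 501 and 492. RPL13A stood at 261 and 262 and RPS19 at 246 and 262. At the other end RPS29 stood at 2.02 and 1.94 and RPS12 at 0 and 0.0227, although a ribosome holds 1 copy of each. Control values of 10 ribosomal protein genes lay over 2-fold apart. The widest was RPLP1, a stalk protein, at 561 in control replicate 1 and 4.75 in control replicate 2. Ribosomal protein genes have many pseudogenes, and RPL15 overlaps NKIRAS1 on the other strand.

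Among translation factors, EIF1, which monitors start codon choice, stood at 279 and 295, EIF5A at 262 and 267, the elongation factor EEF1A1 at 214 and 223, and EEF2 at 207 and 192. EIF4A1, the main helicase of the initiation complex, was listed at 0 in both control libraries. The start runs printed above belonged to genes between 192 and 710.0, a range set by printing genes from the high end of their lists. Such runs also open genes with far lower values, among them RPS12.

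Of 34 listed genes of actin, tubulin and the membrane scaffold, 31 belonged to the baseline, with a median of 95.8 and 3.60% ± 0.0381 of the control totals (SD, n = 2). PFN1, which feeds actin monomers to growing filaments, stood at 1188 and 1216, and the cytoplasmic actin ACTG1 at 921 and 937. ACTB, its close relative, was lower, at 566 and 475. The actin-sequestering thymosins TMSB10 and TMSB4X stood at 663 and 666 and at 539.9 and 578. The annexin partner S100A10 stood at 531 and 554, and the tubulin TUBA1B at 521 and 547.

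Of 22 listed simple epithelial keratins and junction genes, 16 belonged to the baseline, 3 were over 2-fold apart, 3 stood under 1 and 4 had a mean of 100 or more, and the median was 14.5. KRT8 and KRT18, the keratin pair of simple epithelia, stood at 787 and 703 and at 487 and 412. KRT7, a keratin of lung and duct epithelium, stood at 399.5 and 414. KRT81, a hair keratin, stood at 464 and 623. KRT8 overlaps KRT18 in the annotation, and KRT81 overlaps KRT86, both on opposite strands. Junction genes were lower: CDH1, the epithelial cadherin, stood at 15.1 and 14.6, and the adhesion molecule EPCAM at 1.63 and 2.17. CD24, a surface glycoprotein of many carcinomas, stood at 408 and 414.

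Genes linked to a mesenchymal state were also present. Of 14 listed, 13 belonged to the baseline with a median of 4.62. S100A4, a calcium-binding protein of motile cells, stood at 120.1 and 115, the intermediate filament VIM at 129 and 81.6, the matrix protein FN1 at 38.9 and 37.6, and the mesenchymal cadherin CDH2 at 8.45 and 8.18. CDH1 thus stood above CDH2 in both libraries by less than 2-fold, if the values are on a per-length scale.

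**Figure D3:**
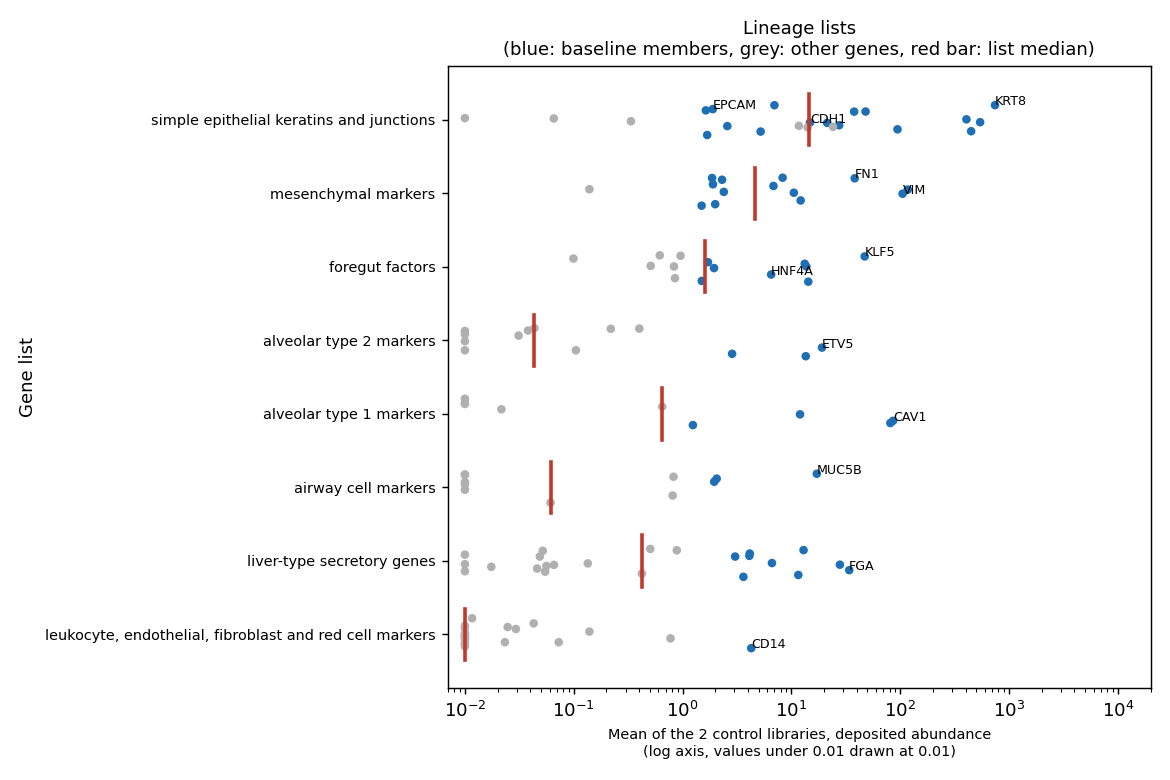
Mean of the 2 control libraries (log axis, deposited abundance, values under 0.01 drawn at 0.01) for each gene of 8 lineage lists, with baseline genes in blue, other genes in grey and the list median as a red bar. Keratins reach 745 (KRT8), while the median of alveolar type 2 markers is 0.0435.

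Most listed markers of mature lung epithelium stood under 1, at 10 of 13 for the alveolar type 2 cell, 5 of 9 for type 1 and 8 of 11 for airway cells. Of 13 markers of the alveolar type 2 cell, which makes surfactant, 3 belonged to the baseline. The transcription factor ETV5 stood at 18.3 and 20, the lipid-remodelling enzyme LPCAT1 at 13.6 and 13.6, and the surfactant lipid transporter ABCA3 at 3.30 and 2.41. The surfactant protein genes SFTPA1 and SFTPA2 and the lung lineage factor NKX2-1 were listed at 0 in both libraries, and SFTPB stood at 0 and 0.0167. Of 9 alveolar type 1 markers 4 belonged to the baseline, led by the caveolins CAV1, at 82.9 and 89.2, and CAV2, at 79.6 and 83.0, whereas PDPN and HOPX were listed at 0. Of 11 airway markers 3 belonged to it, led by the mucin MUC5B at 18.7 and 15.6, and 5 were listed at 0 in both libraries, among them the club cell protein SCGB1A1 and the basal keratin KRT5.

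Factors of foregut and liver were measurable beside these. KLF5, a zinc-finger factor of gut and airway epithelium, stood at 46.2 and 48.3, the pioneer factor FOXA1 at 14.8 and 13.8, and HNF4A, a factor of liver and gut, at 6.69 and 6.36. Of 23 listed liver-type secretory genes 9 belonged to the baseline. The fibrinogen chains FGA, FGB and FGG stood at 34.2 and 33.9, 12.3 and 13.6, and 11 and 12.1, and the urea cycle enzyme CPS1 at 27 and 28.9. Albumin (ALB) stood at 0.0392 and 0.0701, and APOB, APOC3 and APOA2 were listed at 0.

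Markers of other cell types did not reach the baseline except for 1. Of 19 markers of leukocytes, endothelium, fibroblasts and red cells, 8 were listed at 0 in both control libraries, including PTPRC, CDH5 and COL1A2. Their summed value was 5.23 and 5.60, most of it from CD14, a co-receptor for lipopolysaccharide, at 4.09 and 4.47. In bulk RNA, fewer cells of a type and less RNA per cell cannot be told apart. Of markers for the labelled epithelial-like type, KRT8, KRT18 and KRT7 stood high, CDH1 lower and EPCAM low, and KRT19 is not reported here. The zeros listed for surfactant protein genes are no measure of absence in this table.

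Vitamin D genes were split. CYP24A1, the hydroxylase that inactivates vitamin D (ENSG00000019186, chr20:54153449-54173973, minus strand), stood at 509 and 515 and ranked 27, close to RPL15 at 500.0 and 517. CYP27B1, which makes the active hormone, stood at 3.33 and 3.97. VDR, the receptor through which the hormone induces CYP24A1, stood at 0.306 and 0.206, outside the baseline, and its partner RXRA at 8.08 and 8.48. The circulating carrier GC and the calcium channel TRPV6 were listed at 0. Of 13 listed genes 5 belonged to the baseline.

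Growth genes were steady between the libraries. CCND1, the cyclin of G1, stood at 185 and 184, MYC at 180.04 and 186, the receptor EGFR at 58.6 and 55.9 and MET at 45.1 and 44.4, and 18 of 19 listed genes belonged to the baseline. Of the genes altered in this line, the kinase STK11 stood at 4.85 and 4.38, and the chromatin remodeller SMARCA4 at 0.875 and 0.728. CDKN2A, which encodes an inhibitor of G1 kinases, stood at 0 and 0.143, and its neighbour CDKN2B was listed at 0 in both libraries. CDKN1A, another kinase inhibitor, stood at 17.6 and 21.2. Of 29 genes of S phase, G2 and mitosis, 24 belonged to the baseline with a median of 12.1. TOP2A, the topoisomerase that untangles chromosomes, stood at 55.9 and 54.5, and CDK1, the kinase that starts mitosis, at 41.1 and 48.8.

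Several secreted proteins were abundant. SPP1, the matrix protein osteopontin, stood at 227 and 219, and GDF15, a stress cytokine, at 195 and 145. The neutrophil chemokines CXCL5 and CXCL8 stood at 84.9 and 87.7 and at 39.3 and 43.4. In contrast IL6 stood at 0.832 and 0.624, and CSF2 was listed at 0. For antigen presentation, B2M, the light chain of class I molecules, stood at 187 and 189.5, and HLA-B, a heavy chain, at 4.69 and 3.66. HLA genes are polymorphic and alike, so their values are uncertain.

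Interferon-induced genes, which double-stranded RNA can switch on, were low in the transfected controls. Of 21 listed, 11 belonged to the baseline, none above 10 among those, and the median was 1.54. OAS3, a sensor-linked synthetase, stood at 8.40 and 8.73, IFIT1 at 3.0 and 2.38 and ISG15 at 2.34 and 2.37. MX1 stood at 0.0716 and 0.159, and MX2 was listed at 0. No library without siRNA was analysed here, so the part of transfection in these levels was not tested. AGO2, the slicing protein through which siRNAs act, stood at 10.2 and 9.30, and DICER1 at 8.77 and 13.9.

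Respiratory chain genes of the nucleus had a lower median than the leading lists but a higher one than all baseline genes (7.14). Of 78 listed respiratory chain genes, 69 belonged to the baseline with a median of 17.8 and 1.08% ± 0.0126 of the control totals (SD, n = 2), led by the ATP synthase subunit ATP5F1B at 176 and 169. The small TIM chaperones, with which TIMM13 escorts membrane proteins between the mitochondrial membranes, had 8 of 9 genes in the baseline. TIMM10 stood at 28.0 and 26.6, TIMM9 at 18.7 and 18.8, and TIMM8A, the partner of TIMM13, at 2.50 and 2.77. TIMM13 itself ranked 8278, at 2.09 and 2.56. It lies at chr19:2425624-2427894 (GRCh38, minus strand, ENSG00000099800) and overlaps LMNB2 on the same strand. The gene that the siRNAs address was therefore among the low genes of the baseline, and TIMM8B, at 11.8 and 0.379, was outside it.

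Quality-control lists had medians of 48.3 for cytosolic chaperones, 41.0 for endoplasmic reticulum chaperones, 20.4 for the lysosome and 19.6 for the proteasome and ubiquitin, of which the last pair lay close to the respiratory chain. The highest members of each are given here. The ubiquitin gene UBB stood at 711 and 749. The small heat shock protein HSPB1 stood at 317 and 348, the chaperones HSP90AA1 and HSP90AB1 at 251.2 and 250.5 and at 234 and 234, and the endoplasmic reticulum lectin CANX at 214 and 227. All 13 listed endoplasmic reticulum chaperones belonged to the baseline. In the lysosome, PSAP, the precursor of sphingolipid activators, stood at 365 and 345 and the protease CTSD at 221 and 209. SQSTM1, an autophagy receptor that also binds KEAP1, ranked 32 at 503 and 396. HIF1A, the oxygen-regulated transcription factor, ranked 42 at 374 and 380.1.

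Not every abundant gene met the rule. Of 10407 genes at 1 or more in both control libraries, 677 (6.51%) were over 2-fold apart. Among genes with a mean of 50 or more, those just inside the limit were PCNA, the replication clamp, at 1.96-fold, the helicase DDX3X at 1.75-fold and the ATP synthase subunit ATP5MC2 at 1.71-fold. Those just outside were TMPO, a lamina protein, at 2.02-fold, and the chromatin protein HMGB3 and the splicing factor SRSF6 at 2.08-fold each. The highest excluded gene was ASPH, an aspartate hydroxylase, at 578 in control replicate 1 and 172 in control replicate 2. The amino acid transporter SLC7A5 stood at 444 and 21.5, ATP1B1, a subunit of the sodium pump, at 63.2 and 342, and the integrin ITGB1 at 123 and 337.

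**Figure D4:**
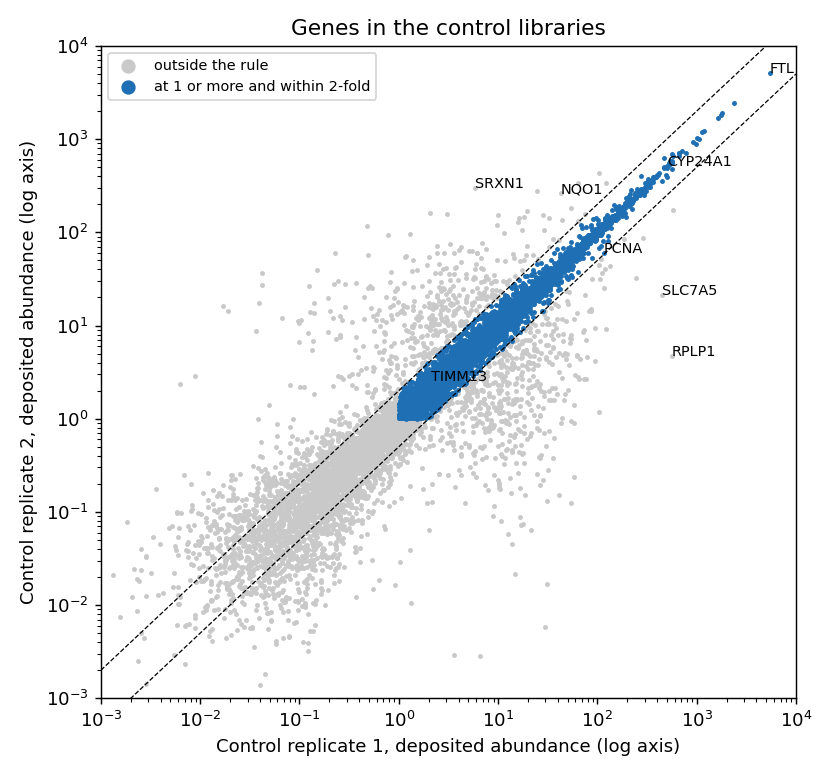
Abundance in control replicate 2 against control replicate 1 (log axes) for genes above 0 in both, with the 9730 baseline genes in blue, others in grey and dashed lines at 2-fold. RPLP1 and SLC7A5 lie far below the lines, and SRXN1 and NQO1 far above.

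The sources used here do not name the program behind the gene values. Genes over 2-fold apart had a median of 10 annotated transcripts, against 8 for baseline genes, and expression level was not held equal. Of 522 genes with 1 transcript, 5 were over 2-fold apart (0.958%), against 154 of 1614 genes with 16 or more transcripts (9.54%). RPS24, a ribosomal protein gene with 19 annotated transcripts, stood at 104 and 429. SRXN1 was an exception, with 1 annotated transcript and a 51.0-fold gap. How transcripts were combined into a gene value is not known either, and its part in these gaps was not tested.

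The siRNA libraries show how far the baseline holds when the cells carry another siRNA. TIMM13 stood at 2.09 and 1.83 in the libraries labelled siRNA 1, at 1.82 and 2.31 in those labelled siRNA 2, and at 2.09 and 2.56 in the controls, so the groups overlap and the labels are not checked by it. Of the baseline genes, 84.0% and 85.1% lay within 2-fold of the control mean in siRNA 1, against 83.1% and 64.8% in siRNA 2, the last being siRNA 2 replicate 2. In all 4 siRNA libraries at once 4743 (48.7%) did, and 13 of the 30 highest genes. At least 9276 of the 9730 stood at 1 or more in each siRNA library. The genes were ranked by the same control values, so any comparison with these controls leans towards lower values in the siRNA libraries.

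**Figure D5:**
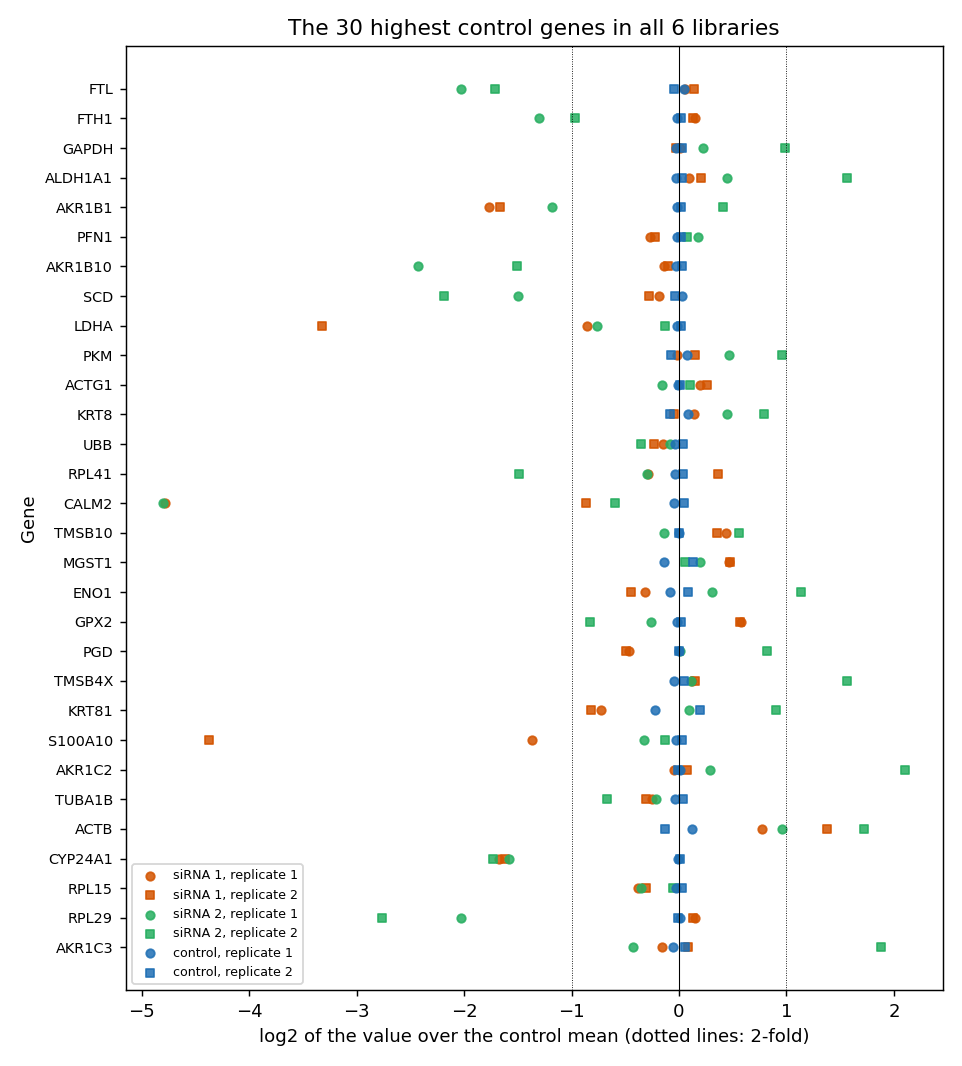
log2 of each library's value over the control mean for the 30 highest control genes, with siRNA 1, siRNA 2 and control libraries in different colours and dotted lines at 2-fold. CYP24A1 is shifted alike in all 4 siRNA libraries, FTL and RPL29 lie low in both siRNA 2 libraries, and CALM2 lies lowest in replicate 1 of each siRNA.

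The leading ranks were compared next. Of the 30, 22 and 21 ranked among the 30 highest genes of the siRNA 1 libraries, 22 and 18 of the siRNA 2 libraries, and 27 and 29 of the control libraries that had chosen them. On the values as deposited, the steadiest over all 6 libraries were UBB and RPL15, each with a highest value 1.32 times the lowest, ACTG1 at 1.33 and PFN1 at 1.37. With the totals made equal, a setting added after the data were seen, the order turned, with TMSB10 at 1.41, GAPDH at 1.47 and PKM at 1.48 steadiest, RPL15 at 1.52 and UBB at 1.88. CALM2, 1 of the genes for the calcium sensor calmodulin, varied most, by 28.9-fold. It stood at 24.9 and 376 in siRNA 1, 24.5 and 452 in siRNA 2, and 659 and 707 in the controls, so replicates of the same siRNA differed more than the groups. CALM2 overlaps AC073283.3, a protein-coding gene on the same strand, over 16430 bases, and the part of that overlap was not tested. S100A10 varied by 21.2-fold and LDHA by 10.2-fold.

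Of the 30 genes, 9 stood below both control values in all 4 siRNA libraries, namely AKR1B10, SCD, LDHA, UBB, CALM2, S100A10, TUBA1B, CYP24A1 and RPL15, where 14.7% of the 11486 genes tested did so. Another 3, ALDH1A1, TMSB4X and ACTB, stood above both, against 18.3% of genes tested. The 30 were chosen by high control values that lay within 2-fold of each other, and the 11486 were not. These counts and shares are therefore not like for like, and no excess is read from them. ACTB stood at 887 and 1355 in siRNA 1, 1011 and 1716 in siRNA 2, and 566 and 475 in the controls, so actin beta, a common reference gene, did not overlap between the groups, yet limma did not call it (both siRNAs together, adjusted p = 0.125). GAPDH, another common reference gene, stood at 1855 and 1816 in siRNA 1, 2156 and 3646 in siRNA 2, and 1805 and 1886 in the controls, with overlap in siRNA 1.

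Of the 30, limma called 1 gene in the mean of both siRNAs against control (Benjamini-Hochberg adjusted p under 0.05 over 11486 genes), where 137 genes (1.19%) were called in either direction, 83 (0.723%) higher and 54 (0.47%) lower. This was CYP24A1, which stood at 161 and 167 in siRNA 1, 171 and 155 in siRNA 2, and 509 and 515 in the controls. All 4 siRNA values lay far below both control values, a log2 fold change of -1.65 (SE 0.139, limma adjusted p = 0.0388). The same control values had ranked CYP24A1 and had to lie within 2-fold of each other, so this p-value is not independent of that choice. The median log2 fold change of the 30 was -0.09, against 0.09 over all genes tested, and 13 of the 30 were positive. Equal upper quartiles moved the median of all genes by -0.11 and equal totals by -0.13, and CYP24A1 was then not called (limma adjusted p = 0.0736 and 0.106). The 137 calls depended on single libraries. None was made after dropping either control replicate (1 or 2) or either siRNA 1 replicate (1 or 2), leaving 1260 to 1765 genes at an unadjusted p under 0.05, while 4066 were made without siRNA 2 replicate 1 and 2319 without its replicate 2. CYP24A1 followed, with limma adjusted p of 0.172 to 0.233 in those first 4 runs and 0.0088 and 0.00982 in the others.

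The lists were set against all genes tested, of which 0.723% were called higher and 0.47% lower. The 19 markers of other cell types summed to 5.64 and 6.10 in siRNA 1, 9.93 and 11.8 in siRNA 2, and 5.23 and 5.60 in the controls, and their part in the changes was not tested. Of these markers CD14 stood at 1.80 and 2.29 in siRNA 1, 6.99 and 6.44 in siRNA 2, and 4.09 and 4.47 in the controls. Of 32 NRF2 targets tested, 2 were called higher and 0 lower, ME1 and CBR1, with a median log2 fold change of -0.01. ME1 stood at 82.2 and 89.4 in siRNA 1, 60.1 and 65.1 in siRNA 2, and 31.1 and 30.5 in the controls. CBR1 was listed at 0 and stood at 0.648 in siRNA 1, at 51.0 and 71.1 in siRNA 2, and at 0.206 and 0.0593 in the controls, so its call rests on siRNA 2. Of 80 ribosomal protein genes limma called 0 (2 at an unadjusted p under 0.05), with a median log2 fold change of 0.64, while their share of the column total was 4.90% and 5.11% in siRNA 1, 3.77% and 9.64% in siRNA 2, and 4.35% and 4.27% in the controls. The 9.64% belongs to siRNA 2 replicate 2. Of 22 translation factors tested, EEF1A1 was called higher, at 957 and 909 in siRNA 1, 904 and 1605 in siRNA 2, and 214 and 223 in the controls. Of 6 vitamin D genes tested 2 were called, both lower, CYP24A1 and CYP27B1, with CYP27B1 at 1.22 and 1.39 in siRNA 1, 0.827 and 0.771 in siRNA 2, and 3.33 and 3.97 in the controls.

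Lists of proliferation, cytosolic chaperone and respiratory chain genes held 1 or 2 calls each, beside the 0.723% of all genes called higher and 0.47% lower. Of 13 endoplasmic reticulum chaperones limma called 0 (5 at an unadjusted p under 0.05), and of 9 genes of the small TIM list 0 (2 at an unadjusted p under 0.05). CDKN1A, an inhibitor of cyclin-dependent kinases, stood at 206 and 167 in siRNA 1, 83.3 and 55.9 in siRNA 2, and 17.6 and 21.2 in the controls, and it was the 1 gene called of 19 growth and checkpoint genes (log2 fold change 2.48, SE 0.234, limma adjusted p = 0.0388). TOP2A stood at 14.7 and 14.6 in siRNA 1, 11 and 16.4 in siRNA 2, and 55.9 and 54.5 in the controls, and it was the 1 gene called of 29 of S phase, G2 and mitosis (log2 fold change -1.90, SE 0.198, limma adjusted p = 0.0427). The whole list of 29 had a median log2 fold change of -0.12, against 0.09 over all genes tested. HSP90AA1, a stress-induced chaperone, stood at 448 and 463 in siRNA 1, 769 and 817 in siRNA 2, and 251.2 and 250.5 in the controls. Of 22 cytosolic chaperones 2 were called higher, HSP90AA1 and CCT5, a subunit of the chaperonin that folds actin and tubulin. Of 77 respiratory chain genes 2 were called higher, UQCRB of complex III and COX7B of complex IV. The median log2 fold change was 0.62 for the 22 chaperones and 0.51 for the 77, against 0.09 over all genes tested. The respiratory chain share of the column total was 1.12% and 1.20% in siRNA 1, 1.12% and 1.99% in siRNA 2, and 1.09% and 1.07% in the controls. UQCRB stood at 56.1 and 52.7 in siRNA 1, 52.6 and 55.7 in siRNA 2, and 10.6 and 8.80 in the controls, with no overlap and little spread within groups (log2 fold change 2.37, SE 0.146, limma adjusted p = 0.0211). SCD and AKR1B10, among the 30 highest genes, were low chiefly in siRNA 2 and were not called. SCD stood at 905 and 849.5 in siRNA 1, 367 and 227 in siRNA 2, and 1056 and 1009.7 in the controls (limma adjusted p = 0.106), and AKR1B10 at 1057 and 1079.7 in siRNA 1, 216 and 408 in siRNA 2, and 1139 and 1186 in the controls (limma adjusted p = 0.137).

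Ferritin and HMOX1 differed between the 2 siRNAs, in a comparison whose difference uses no control value and which was added after the data were seen. FTL stood at 5487 and 5809.7 in siRNA 1, 1293 and 1616 in siRNA 2, and 5456 and 5120.3 in the controls. FTH1 stood at 2658 and 2627 in siRNA 1, 969 and 1222 in siRNA 2, and 2372 and 2420.3 in the controls. Both siRNA 2 libraries lay below the controls for both chains, and both siRNA 1 libraries lay above them. Of the 30 genes limma called 3 in siRNA 1 minus siRNA 2, where 376 genes (3.27%) were called, 219 (1.91%) higher and 157 (1.37%) lower. They were FTL (log2 fold change 1.96, SE 0.195, adjusted p = 0.0322), FTH1 (1.28, SE 0.193, adjusted p = 0.0487) and RPL29 (2.52, SE 0.285, adjusted p = 0.0365). RPL29 stood at 550.4 and 545 in siRNA 1, 122 and 73.1 in siRNA 2, and 501 and 492 in the controls. HMOX1, ranked just below the 30, stood at 1608 and 1514 in siRNA 1, 162 and 207 in siRNA 2, and 465 and 488 in the controls (log2 fold change 3.09, SE 0.197, limma adjusted p = 0.0191). The summed share of the iron and haem list was 4.82% and 4.83% in siRNA 1, 1.6% and 1.31% in siRNA 2, and 4.30% and 4.18% in the controls. Of its 18 genes tested, 3 were called, namely FTL, FTH1 and HMOX1, while the median of the 18 was -0.16, near the -0.10 over all genes tested. Of 32 NRF2 targets tested, limma called the same 3 and GCLM higher and CBR1 lower in siRNA 1 than in siRNA 2, and the list's median was -0.38, opposite in sign to most of its calls. GCLM stood at 141 and 157 in siRNA 1, 61.5 and 45.7 in siRNA 2, and 97.2 and 94.4 in the controls. The share of the NRF2 targets in the column total was 7.33% and 7.39% in siRNA 1, 3.70% and 4.98% in siRNA 2, and 7.0% and 7.08% in the controls. The 376 calls became 0 without either control replicate or either siRNA 1 replicate (1517 to 1998 genes at an unadjusted limma p under 0.05), and 4581 and 1647 without siRNA 2 replicate 1 or 2.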

How the data were processed

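RNA of 6 A549 libraries, 2 per group, was sequenced after poly(A) selection with a dUTP strand-specific kit, per the labels' protocols. The authors deposited 1 table with a signal per gene symbol that is not a read count, and the sources used here state neither its unit (FPKM or TPM) nor the tool that made it. Trim Galore, STAR, featureCounts and hg38 appear in the submitters' processing notes.

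From these values, means, SDs, ranks and shares of the column total were computed with Python 3.11.15 (pandas 2.3.3, numpy 2.4.6). Members and all 33 gene lists were chosen with earlier results of these data known. Genes named are the 30 highest, the limits of the rule, and from each list the 6 highest members, the lowest and those listed at 0, plus every gene of the lineage lists and of the genes altered in A549. Others, among them genes called within a list, were chosen after their values were seen, and some genes that the rule names are not reported here.

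For group comparisons, log2(value + 1) of genes at 1 or more in at least 2 libraries (11486 of 19990) was fitted over all 6 libraries with 1 term per group, leaving 3 residual degrees of freedom, in limma 3.58.1 (R 4.3.3, trend and robust options). This scale understates changes of low genes. In simulated data the both-siRNAs comparison over 11486 genes called 13% of genes changed by 1 log2 unit, 54% by 2, 80.2% by 4, and 0.0665% of unchanged genes. Changes were placed only in genes with a mean of at least 5, with independent noise around a common mean per gene. No simulated library stood apart as siRNA 2 replicate 2 does, so these rates do not cover such a library. Alternatives covered scaling, pseudocount, filters, spread, replicate block and each library left out. Of the gene symbols, 94.6% were found in GENCODE release 29 (GRCh38), and promoter windows were taken from RefSeq by symbol.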

Additional observations from a re-analysis of the deposited data

Results flagged for a closer look

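FTL, FTH1, RPL29 and HMOX1 differed between the 2 siRNAs when these were tested against each other. The log2 differences, siRNA 1 minus siRNA 2, were 1.96 for FTL, 1.28 for FTH1, 2.52 for RPL29 and 3.09 for HMOX1 (limma adjusted p = 0.0322, 0.0487, 0.0365 and 0.0191). All 4 were higher in both siRNA 1 libraries than in both siRNA 2 libraries. Over 13 alternative fits, FTL and HMOX1 were called in 8 each, RPL29 in 6 and FTH1 in 3, and the limma adjusted p ranged between 0.00737 and 0.204 for FTL, 0.00737 and 0.284 for FTH1, 0.00694 and 0.208 for RPL29, and 0.00694 and 0.146 for HMOX1. The sign was positive in all 13 for each gene.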

How the results depend on the processing

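Depth is unknown, and with 2 libraries a group the tests rest on 3 residual degrees of freedom. The number of baseline genes was 10609 with a minimum of 0.5, 5850 with a minimum of 5, 9308 with a 1.5-fold limit and 9934 with a 3-fold limit. The 30 highest genes shared 28 to 30 with those of any other ranking tried. As shares of the baseline alone, NRF2 targets held 7.47%, iron and haem 4.57%, ribosomal proteins 4.23%, glycolysis 2.96%, actin, tubulin and scaffold 3.77%, keratins and junctions 1.25% and the respiratory chain 1.13%. Without genes over 2-fold apart, NRF2 targets held 6.90%, ribosomal proteins 3.91%, actin, tubulin and scaffold 3.48% and the respiratory chain 1.05%.

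For both siRNAs against control, limma called 43 genes with no filter, and 36 each with upper-quartile scaling and equal totals. Leaving out 1 library gave 0 to 4066 calls, and 0 to 17 among the 30 highest genes. Those 30 had 0 calls with upper-quartile scaling and equal totals (8 each at an unadjusted p under 0.05). For siRNA 1 against siRNA 2 the calls were 239 with no filter, 186 with a mean of at least 5, 80 with upper-quartile scaling and 38 with equal totals, and 0 to 4581 without 1 library. Among the 30 they were 1 with either scaling and 0 to 21 without 1 library. Where limma called 0 genes for both siRNAs without 1 library, 1260 to 1765 had an unadjusted p under 0.05. The lone library of a group was assumed to vary like the other groups.

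Libraries of the same number hardly deviated together over the genes as a whole (correlations of deviations 0.00136, -0.00332 and 0.0459 across genes). The labels do not say whether they were grown or processed together, and such correlations cannot tell. With the replicate block limma called 0 genes for both siRNAs (2287 at an unadjusted p under 0.05) and 0 for siRNA 1 against siRNA 2 (2436), hence 0 of the 30 in either.

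Of single genes among the 30, the change with both siRNAs turned sign for ACTG1 with upper-quartile scaling (-0.039) and equal totals (-0.054), and for GPX2 with upper-quartile scaling (-0.13) and equal totals (-0.14). Leaving out 1 library gave -0.13 to 0.15 for GPX2 (negative without siRNA 2 replicate 1, at -0.13, or control replicate 1, at -0.0027), -0.033 to 0.38 for ENO1 (negative without siRNA 2 replicate 2) and -0.33 to 0.089 for KRT81 (positive without control replicate 2 or, at 0.08, siRNA 2 replicate 1). It gave -0.23 to 0.92 for AKR1C3 (negative without siRNA 2 replicate 2), and 0.17 for PGD without siRNA 2 replicate 1. The 2 scalings moved the median of all genes by -0.11 and -0.13, more than the change of ACTG1 (0.099) or GPX2 (0.012), so those signs follow from the scaling; for the single libraries the cause was not tested.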
